A study of Mus musculus with 12 samples.

Results

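A set of 10 genes of the retinoblastoma pathway that control entry into S phase were followed in RNA from mammary tumors of the MADM mouse model. They are the retinoblastoma family Rb1, Rbl1 and Rbl2, the G1 cyclins Ccnd1 and Ccne1, the cyclin D-dependent kinases Cdk4 and Cdk6, and the inhibitors Cdkn2a, Cdkn2b and Cdkn1b. They were chosen by gene symbol, and all 10 of them were found among the 47593 genes with a value. In all, 12 tumors from 9 MADM-mutant mice were sequenced, all untreated and of a single condition, with no normal gland and no second genotype to set them against. Every mouse carried MMTV-Cre, a transgene that drives recombination in mammary epithelial cells, and the MADM cassettes (RG;GR in the labels) on a mixed background, with a floxed Brca1 allele and a p53 knockout allele linked to one cassette, so that rare GFP-positive cells lose both genes while neighboring cells stay heterozygous. The pieces taken were whole tumor tissue, which also holds stromal and immune cells, and the ages of the animals are not given in the labels. Tumors 3 and 4 came from one mouse, tumors 10, 11 and 12 from another, and the remaining 7 mice gave 1 tumor each.

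In resting cells the Rb protein and its relatives p107 (Rbl1) and p130 (Rbl2) bind E2F transcription factors and keep S phase genes silent. Cyclin D1 with Cdk4 or Cdk6, and later cyclin E1 with Cdk2, phosphorylate the Rb family and release E2F. The Cdkn2b product p15Ink4b and the Cdkn2a product p16Ink4a block Cdk4 and Cdk6, whereas Cdkn1b encodes p27Kip1, which acts mainly on cyclin E-Cdk2. Cdkn2a also encodes p19Arf from an alternative start, which restrains Mdm2 and thereby protects p53. Loss of Rb function is a known feature of basal-like breast cancer, and cells without Rb often hold high p16.

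Values are given as TPM, transcript abundances that are divided by length and scaled to the same total in each tumor, so levels can be compared between genes within a tumor. TPM holds no read numbers, so the sequencing depth behind a value, and with it the counting error, is unknown. Means and tests use log2(TPM + 1) averaged within a mouse (n = 9 mice). In bulk tissue, fewer cells of a type and less RNA per cell cannot be told apart. Several tumors stood apart from the rest in their cell type markers. In tumor 2 the median of 5 epithelial markers (Epcam, Cdh1, Krt8, Krt18 and Cldn4) was 0.326 TPM, with Epcam at 0, and the summed level of the list was 1.48 TPM against 152 to 7612 TPM elsewhere. The 5 B cell markers summed to 1852 TPM there, against 0.648 to 115 TPM in the other tumors, so the labelled tissue, a mammary tumor, was not borne out by its epithelial markers in tumor 2. Tumor 8 was also low in the epithelial list, with a median of 3.77 TPM, and it had the highest summed fibroblast (3009 TPM) and macrophage (4514 TPM) markers, whereas tumor 9 had the highest summed T cell markers, at 81.7 TPM. In tumors 3 and 4 the 5 skeletal muscle markers summed to 365 and 245 TPM, against 2.89 to 62.8 TPM elsewhere, and 4 of the 5 were above every other tumor in both. Tumor 4 also had the highest summed adipocyte markers, at 351 TPM. Several results are also given without the mice of tumors 2 and 9. The part of these markers in the results was not tested.

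E2F sites are the sequence through which this pathway reads out. Promoter stretches are shown here for Rbl1 and Cdkn2a, known E2F targets and the only members searched in which the site letters were found. The 8-letter forms TTTCCCGC, TTTGGCGC, TTTCGCGC and TTTGCCGC were searched on both strands of windows running from 250 bases before to 50 bases after a RefSeq start (GRCm38.p6). Promoter windows were matched for 8 of the 10 members, 9 windows in all because Cdkn2a has a pair of starts. Of the member windows 2 held a match, against 744 of all 32851 windows (2.26%). The windows of Rbl2, Ccne1, Cdk4, Cdk6, Cdkn2b and Cdkn1b held none and are not shown. The 250 bases before each of the 3 starts follow, 5′ to 3′ on the minus strand, with matched letters in capitals. The Rbl1 stretch is chr2:157204535-157204784 with its match beginning 18 bases before the start. The upstream Cdkn2a stretch, at the p19Arf start, is chr4:89294620-89294869 with its match 99 bases before the start, and the downstream one, at the p16Ink4a start, is chr4:89282193-89282442 with no match.
Rbl1: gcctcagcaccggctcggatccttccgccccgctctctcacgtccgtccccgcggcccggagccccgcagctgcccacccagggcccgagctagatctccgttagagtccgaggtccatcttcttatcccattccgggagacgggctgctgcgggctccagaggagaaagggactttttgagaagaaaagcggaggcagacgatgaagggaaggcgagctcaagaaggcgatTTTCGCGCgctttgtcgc
Cdkn2a upstream start: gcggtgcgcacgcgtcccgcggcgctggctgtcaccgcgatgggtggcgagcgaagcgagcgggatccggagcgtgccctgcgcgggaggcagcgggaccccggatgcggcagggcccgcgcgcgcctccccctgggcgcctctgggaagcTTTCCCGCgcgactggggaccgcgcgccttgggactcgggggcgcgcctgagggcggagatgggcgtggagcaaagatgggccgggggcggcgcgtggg
Cdkn2a downstream start: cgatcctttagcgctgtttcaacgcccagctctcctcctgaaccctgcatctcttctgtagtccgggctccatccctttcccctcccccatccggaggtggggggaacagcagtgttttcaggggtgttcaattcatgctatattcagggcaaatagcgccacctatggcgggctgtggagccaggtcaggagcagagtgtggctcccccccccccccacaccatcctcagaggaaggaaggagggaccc
A match describes letters only, and the absence of one covers these windows only. The deposited Cdkn2a value is a single number per tumor, so it does not separate transcripts from the starts shown above.

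All 10 members were expressed, with a mean of at least 1 TPM, a level that 16802 genes reached. On the log2(TPM + 1) scale the order of mean levels ran from Ccnd1 (7.96) through Cdk4 (7.87), Cdkn2a (7.34), Cdkn1b (5.51), Cdkn2b (4.93), Ccne1 (4.53), Rbl1 (4.48), Rb1 (4.48) and Rbl2 (4.37) to Cdk6 (3.89). No pair of neighbors in this order was separated beyond the spread between mice (exact sign-flip permutation tests, two-sided, adjusted over 9 pairs). The pair that came closest, and the only 1 of 9 with an unadjusted p under 0.05, was Cdkn2a against Cdkn1b (exact sign-flip p = 0.039, adjusted p = 0.35). In at least one tumor 6 of the 10 members (Rb1, Ccne1, Cdk4, Cdk6, Cdkn2a and Cdkn2b) passed 2 times the median of the other tumors, and 49.8% of all expressed genes did so. In 2 of the 10 members (Ccnd1 and Cdkn2a) Dixon's ratio over 9 mice picked out a single mouse far below the rest, and it picked out a mouse in 18.7% of expressed genes.

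**Figure D1:**
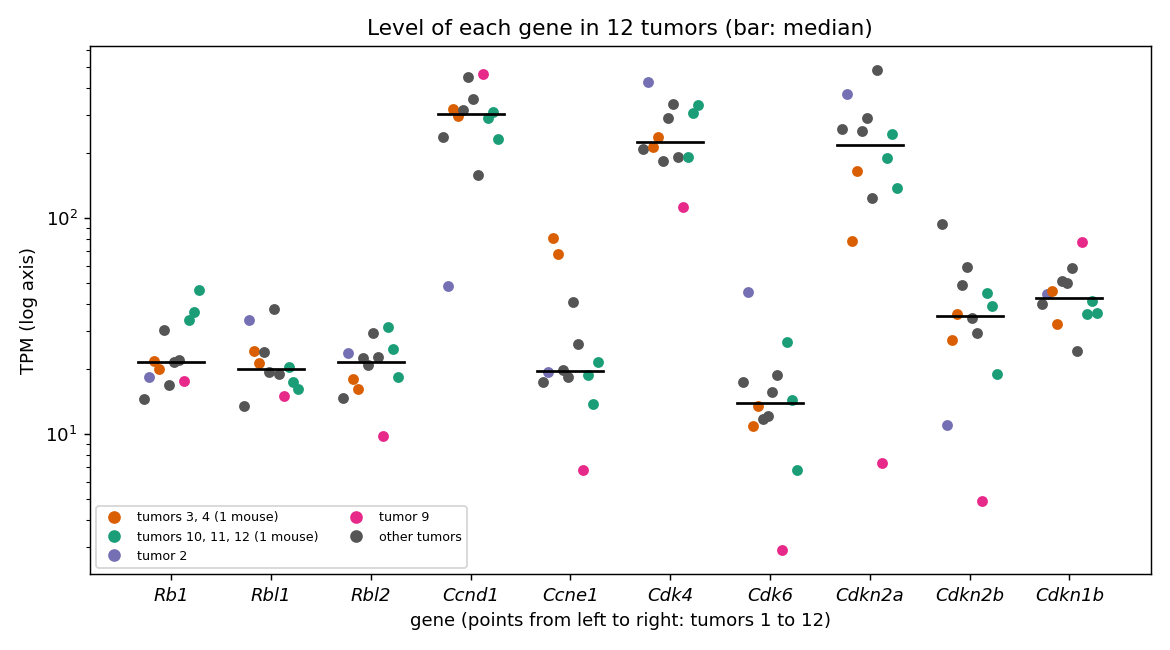
TPM of the 10 genes on a log axis in tumors 1 to 12 (points from left to right, colored by mouse or tumor as keyed), with the median of the 12 tumors as a bar. Tumors 10, 11 and 12 are the highest 3 for Rb1, tumors 3 and 4 the highest for Ccne1, and tumor 9 is the lowest for Rbl2, Ccne1, Cdk4, Cdk6, Cdkn2a and Cdkn2b.

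The 3 Rb family genes were expressed at like levels, and no tumor had less than 9.74 TPM of any of them. RNA of whole tissue does not tell whether the tumor cells kept Rb1. The paper reports recurrent Rb1 deletion by exome sequencing of MADM tumors, without stating whether these are among the tumors described here. Rb1 (ENSMUSG00000022105, chromosome 14, 73183673 to 73325822, minus strand, GRCm38), the founding member, had 22.3 ± 7.65 TPM (SD, n = 9 mice), from 14.6 TPM in tumor 1 through a median of 21.6 TPM to 46.3 TPM in tumor 12. The 3 tumors of one mouse held the highest Rb1 values of all, with 33.7 TPM in tumor 10, 36.6 TPM in tumor 11 and 46.3 TPM in tumor 12, and the next was tumor 5 at 30.2 TPM. These 3 tumors thus did not overlap with the other mice in Rb1, a pattern shown, in the higher direction, by 1 of 10 members and by 78 of 16802 expressed genes (0.464%).

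Rbl1 (chromosome 2, 157145893 to 157204534, minus strand), encoding p107, had 22.5 ± 8.22 TPM, from 13.5 TPM in tumor 1 through a median of 19.9 TPM to 37.8 TPM in tumor 7, followed by 33.6 TPM in tumor 2. Rbl2 (chromosome 8, 91070057 to 91123844, plus strand), encoding p130, had 20.5 ± 5.86 TPM, from 9.74 TPM in tumor 9 through a median of 21.6 TPM to 31.2 TPM in tumor 10. The highest tumor thus differed for each of the 3 genes. Within a mouse the 3 genes were not separated. Rb1 differed from Rbl1 by -0.004 ± 0.58 and from Rbl2 by 0.11 ± 0.44 on the log2(TPM + 1) scale, and Rbl1 from Rbl2 by 0.12 ± 0.35 (mean ± SD, n = 9 mice), with adjusted p of 0.99, 0.56 and 0.48 in exact sign-flip permutation tests over 7 contrasts. The balance did shift between mice. Rb1 was 2.88 times Rbl1 in tumor 12 and 0.544 times Rbl1 in tumor 2. Tumor 2 is the tumor with the lowest epithelial markers.

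Most genes around Rb1 were also higher in tumor 12. Of its 10 nearest expressed genes 9 were above their median in the other mice, as were 55.9% of expressed genes. Rb1 was 2.32 times its median in the other mice, while the 10 had a median ratio of 1.44, from 0.415 for Dok2 to 1.59 for Med4, and none of the 10 was above every other mouse in all 3 tumors of that animal. Rcbtb2 and Lpar6 overlap Rb1, and because it is not stated whether strand was used in counting, reads in the overlap cannot be assigned with certainty.

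The G1 cyclins differed widely in level. Ccnd1 (chromosome 7, 144929931 to 144939925, minus strand), encoding cyclin D1, had 290 ± 132 TPM and was the highest member, from 48.5 TPM in tumor 2 through a median of 302 TPM to 464 TPM in tumor 9. Only tumor 2 stood far below the rest: the next lowest value was 158 TPM in tumor 8, and these are the same tumors that were lowest in epithelial markers. Ccne1 (chromosome 7, 38097984 to 38107534, minus strand), encoding cyclin E1, had 26.7 ± 19.9 TPM, from 6.84 TPM in tumor 9 through a median of 19.6 TPM. Its highest values were 80.4 TPM in tumor 3 and 68.0 TPM in tumor 4, both from one mouse, followed by 40.7 TPM in tumor 7.

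Tumors 3 and 4 did not overlap with the other mice in Ccne1, a pattern in the higher direction for 1 of 10 members and for 7.78% of expressed genes. Of the 5 skeletal muscle markers 4 were above every other tumor in both tumors 3 and 4. Acta1 was at 168 and 115 TPM, against at most 19.0 TPM elsewhere, and Myh4 at 16.8 and 11.4 TPM, against at most 0.263 TPM. Ckm was at 25.3 and 16.7 TPM, but also at 23.7 TPM in tumor 2. In tumor 7, next highest in Ccne1, Acta1 was at 0.0188 TPM and Myh4 at 0 TPM. The part of these markers in the Ccne1 values was not tested. Ccnd1 exceeded Ccne1 in 12 of 12 tumors, by 3.43 ± 1.38 on the log2(TPM + 1) scale (mean ± SD, n = 9 mice, exact sign-flip permutation test, adjusted p = 0.0091). The ratio of their TPM ran from 2.51 in tumor 2 through a median of 12.2 to 67.8 in tumor 9. No relation between the levels of both cyclins was detected across mice (Pearson r = -0.065, exact permutation p = 0.84, Spearman rho = -0.17, p = 0.68, adjusted p = 0.84 and 0.91 over 3 relations). Without the mice of tumors 2 and 8, the farthest from the median Ccnd1 level, r was -0.33.

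The D cyclins differed in their shares more than in their sum. Ccnd1 made up 11.0% of the summed TPM of the D cyclins Ccnd1, Ccnd2 and Ccnd3 in tumor 2, 46.0% in tumor 8 and up to 86.1% in tumor 9, with a median of 70.3%. Ccnd2, a D cyclin used in many blood cells, made up 49.6% in tumor 2 and at most 9.66% in any other tumor. The summed level of all 3 D cyclins varied less, from 323 TPM in tumor 12 to 547 TPM in tumor 6. Of the cyclin E pair, Ccne1 made up 85.8% and 84.9% of the sum with Ccne2 in tumors 3 and 4, 35.7% in tumor 2 and a median of 63.7%.

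**Figure D2:**
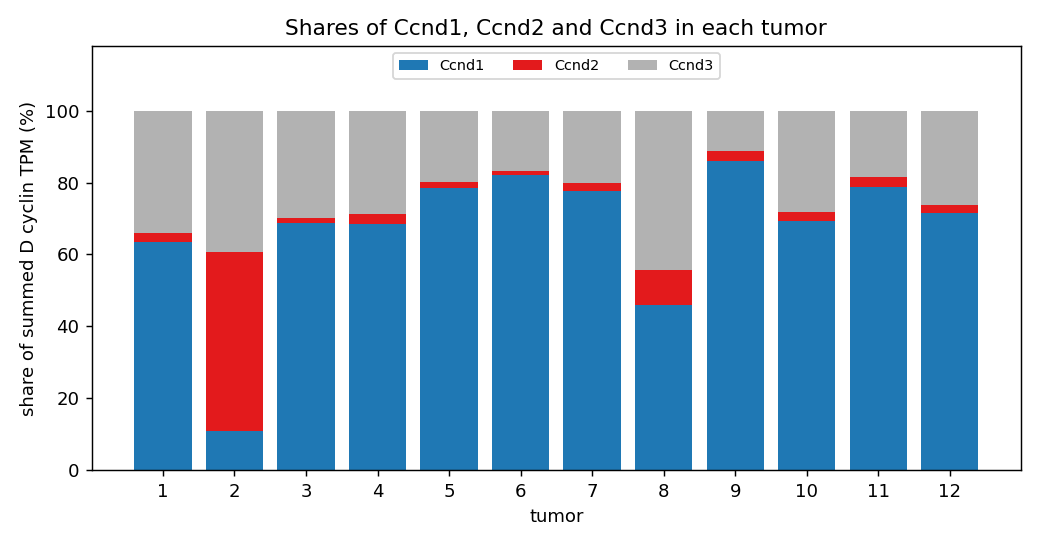
Share of Ccnd1, Ccnd2 and Ccnd3 in their summed TPM, in percent, with 1 stacked bar per tumor. Ccnd1 holds the largest share in every tumor but tumor 2, where Ccnd2 holds 49.6% and Ccnd1 11.0%.

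The high Ccne1 values of tumors 3 and 4 were not shared by the genes beside it. In tumor 3, Ccne1 was 4.22 times its median in the other mice, whereas its 10 nearest expressed genes had a median ratio of 0.974. Uri1, 74.4 kb away, had a ratio of 1.03 and Plekhf1, 109 kb away, a ratio of 0.936. The highest ratio, 3.79, belonged to Gm28077, which had 1.498 TPM in tumor 3 and up to 3.89 TPM in other mice. None of the 10 genes was above every other mouse in both tumors.

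The cyclin D-dependent kinases were expressed very unequally. Cdk4 (chromosome 10, 127063534 to 127067920, plus strand) had 249 ± 93.0 TPM, from 112 TPM in tumor 9 through a median of 225 TPM to 424 TPM in tumor 2. Cdk6 (chromosome 5, 3341485 to 3531008, plus strand) was the lowest member, with 16.8 ± 11.6 TPM, from 2.90 TPM in tumor 9 through a median of 13.9 TPM to 45.2 TPM in tumor 2. Both kinases thus shared their extremes, tumor 9 at the bottom and tumor 2 at the top. Tumor 2 was above all other tumors in 2 of 10 members and in 20.7% of expressed genes.

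Cdk4 exceeded Cdk6 in 12 of 12 tumors, by 3.98 ± 0.56 on the log2(TPM + 1) scale (mean ± SD, n = 9 mice, exact sign-flip permutation test, adjusted p = 0.0091), with the smallest SD of the 4 contrasts outside the Rb family. Cdk4 made up between 87.8% and 98.0% of the sum of the pair. Cdk6 differed strongly between tumors of one animal, falling 3.88 times from 26.5 TPM in tumor 10 to 6.83 TPM in tumor 12, with 14.4 TPM in tumor 11. No other member varied as much within a mouse. Cdk4 overlaps Tspan31 and lies among densely packed genes, and its 10 neighbors had a median ratio of 1.01 in tumor 2, where Cdk4 was 2.00 times the other mice. They ran from 0 for Slc26a10 to 4.84 for Agap2, and 2 of the 10 were above all other mice. For Cdk6, at 3.36 times the other mice in tumor 2, the 6 expressed neighbors had a median ratio of 1.56, with Fam133b highest at 2.38, and 3 of the 6 were above all other mice, beside 20.7% of expressed genes.

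Among the CDK inhibitors Cdkn2a had the widest range of the members, which rested on tumor 9. Cdkn2a (chromosome 4, 89274471 to 89294653, minus strand) had 233 ± 143 TPM, from 7.33 TPM in tumor 9 through a median of 216 TPM to 483 TPM in tumor 8, a range of 65.8 times. All tumors other than tumor 9 lay at or above 77.9 TPM (tumor 3), and the second highest was tumor 2 at 375 TPM. Its SD over mice, 1.74 on the log2(TPM + 1) scale, exceeded that of 94.6% of expressed genes. Without the mouse of tumor 9 the SD was 0.73, above that of 68.7% of expressed genes, and the range was 6.19 times, below those of Ccnd1 (9.27 times), Cdkn2b (8.48 times) and Cdk6 (6.62 times).

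Cdkn2b (chromosome 4, 89306299 to 89311039, minus strand), the neighbor of Cdkn2a, had 38.5 ± 26.5 TPM, from 4.90 TPM in tumor 9 and 11.0 TPM in tumor 2 through a median of 35.0 TPM to 93.5 TPM in tumor 1. Cdkn1b (chromosome 6, 134920401 to 134925513, plus strand), encoding p27Kip1, ran the opposite way at the ends, with 46.9 ± 15.0 TPM, from 24.2 TPM in tumor 8 through a median of 42.7 TPM to 77.2 TPM in tumor 9. The tumor that was lowest in both Ink4 genes was therefore the highest in Cdkn1b, and the tumor that was highest in Cdkn2a the lowest. This was seen in single tumors and was not tested.

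Cdkn2a exceeded Cdkn2b in 12 of 12 tumors, by 2.41 ± 1.34 on the log2(TPM + 1) scale (mean ± SD, n = 9 mice, exact sign-flip permutation test, adjusted p = 0.0091), with a TPM ratio from 1.498 in tumor 9 through a median of 4.75 to 34.0 in tumor 2. Cdkn2a exceeded Cdkn1b in 8 of 9 mice, by 1.82 ± 2.099, which did not pass after adjustment (exact sign-flip permutation test, p = 0.039, adjusted p = 0.068). The exception was tumor 9, at -3.23. When any other mouse was left out the contrast did not pass either (exact sign-flip permutation test, adjusted p from 0.11 to 0.14). Among the 4 Ink4 genes (with Cdkn2c and Cdkn2d), Cdkn2a made up a median of 69.4% of the summed TPM, 47.6% in tumor 3 and 14.6% in tumor 9.

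**Figure D3:**
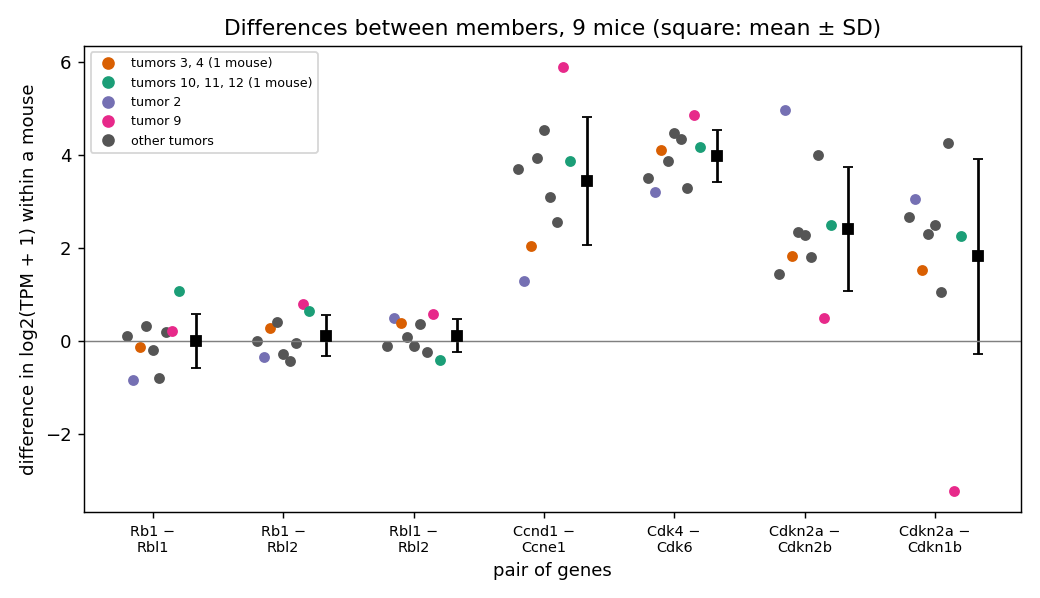
Difference in log2(TPM + 1) between pairs of members within each of 9 mice (points), with the mean ± SD as a square and bars. The Ccnd1-Ccne1, Cdk4-Cdk6 and Cdkn2a-Cdkn2b differences are above 0 in all 9 mice, the 3 Rb family differences scatter around 0, and Cdkn2a minus Cdkn1b is negative only in tumor 9.

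In tumor 9 the low values covered the Cdkn2a-Cdkn2b neighborhood on chromosome 4, a region picked for description after its values were seen. Mtap, 93.4 kb from Cdkn2a and encoding an enzyme of methionine salvage, had 8.85 TPM in tumor 9 and at least 37.7 TPM in every other tumor. Cdkn2a in tumor 9 was 0.0301 times the median of the other tumors, Cdkn2b 0.137 times and Mtap 0.162 times. The noncoding neighbors Mir31, Gm12602, Gm12603 and Gm12609 were listed at 0 in tumor 9, as they were in some other tumors, and Gm12610 was at 0.0746 times the median of the others. Beyond these genes the values in tumor 9 were mixed. Klhl9, whose middle lies 574 kb from the upstream Cdkn2a start, was at 0.780 times the median of the others and still below all of them. On the other side Gm12643, 1743 kb away, was at 0.997 times, Gm12669 at 0.842 times and Gm12671, 2558 kb away, at 4.49 times.

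Low values were common in tumor 9: it was below all other tumors in 6 of 10 members and in 20.6% of expressed genes. A value under 0.25 of the lowest other tumor was rarer, found for 1 of 10 members (Cdkn2a) and for 1.02% of expressed genes, and Mtap was also under that bound, at 0.235. The 5 epithelial markers summed to 2909 TPM in tumor 9, against 2829 to 7612 TPM in the tumors other than 2, 8 and 9. Epcam (914 TPM) and Cldn4 (674 TPM) were above the median of the other tumors there, while Cdh1 (82.6 TPM), Krt8 (677 TPM) and Krt18 (562 TPM) were below all tumors but 2 and 8.

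In tumor 8, the tumor with the highest fibroblast and macrophage markers, Cdkn2a was highest at 2.56 times the other mice, and 5 of its 10 nearest expressed genes were also above all other mice, as were 12% of expressed genes. Mtap had 79.9 TPM there, a ratio of 1.59, against up to 77.5 TPM in the other mice. The noncoding Gm12603 and Gm12606 had 87.1 and 32.8 TPM against a median of 0 in the other mice. Their highest values elsewhere were 25.3 TPM (Gm12603, tumor 6) and 26.8 TPM (Gm12606, tumor 7). Gm12602 had 6.20 TPM, against up to 5.39 TPM, and Gm12609 2.60 TPM, against up to 1.62 TPM. Cdkn2b was not among them, at 0.819 times the other mice. In tumor 1, where Cdkn2b was highest at 2.72 times the other mice, Cdkn2a was at 1.36 times and Mtap at 1.12 times.

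**Figure D4:**
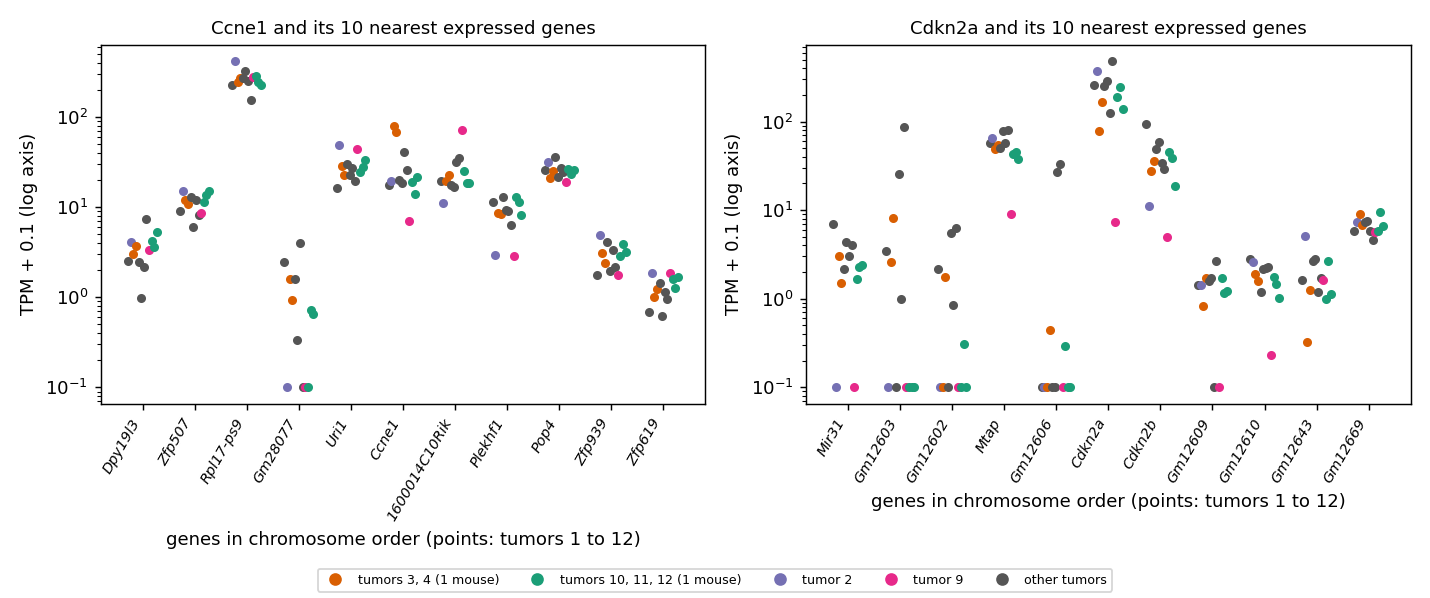
TPM + 0.1 on a log axis of Ccne1 (left) and Cdkn2a (right), each with its 5 nearest expressed genes on either side in chromosome order, in tumors 1 to 12 from left to right within a gene. Tumors 3 and 4 are high for Ccne1 but not for Uri1 or 1600014C10Rik beside it, and tumor 9 is lowest for Mtap, Cdkn2a and Cdkn2b.

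Cdkn2a and Cdkn2b showed no relation past the threshold. Across 9 mice Pearson r was 0.64 (exact permutation p = 0.081, adjusted p = 0.24) and Spearman rho 0.17 (p = 0.68, adjusted p = 0.91). Without the mice of tumor 9 and of tumors 3 and 4, the farthest from the median Cdkn2a level, r was -0.25 (exact permutation p = 0.61), and leaving out single mice gave -0.14 without tumor 9 and 0.65 without tumors 3 and 4, so the positive value rested on the mouse of tumor 9. For Rb1 with Cdkn2a no relation was detected, with rho of -0.050 (exact permutation p = 0.91, adjusted p = 0.91).

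Members differed between mice about as often as genes at large. The spread between mice was set against the spread between tumors of one mouse with limma's moderated F test, in which only the 2 mice with several tumors inform the within-mouse spread. Of the 10 members 5 passed, namely Ccnd1 (adjusted p = 0.0064), Ccne1 (adjusted p = 0.013), Cdkn2a (adjusted p = 0.015), Cdkn2b (adjusted p = 0.042) and Rb1 (adjusted p = 0.043), and 43.1% of all 16802 expressed genes did. The others were Rbl1 (adjusted p = 0.052), Cdkn1b (0.067), Cdk4 (0.11), Rbl2 (0.15) and Cdk6 (0.20).

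The members also differed in how closely tumors of one animal resembled each other. Over the 4 pairs of tumors from one mouse, the mean absolute difference was 0.24 on the log2(TPM + 1) scale for Ccnd1 and 0.36 for Ccne1, against 0.89 and 1.08 over the 62 pairs from different mice. For Cdk6 the value was 0.98 in both kinds of pairs, but it differed between the animals, at 0.28 for tumors 3 and 4 and 1.21 for the 3 pairs among tumors 10, 11 and 12. For the other 7 members the same-mouse values ran from 0.21 for Rbl1 to 0.70 for Cdkn2b, each below its value between mice. Only 2 mice gave these pairs, and no test was made of them.

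The calls between mice changed with the animals included, with losses and gains. In limma's F test, the adjusted p of Ccnd1 was 0.055 without the mouse of tumor 2, that of Cdkn2a 0.13 without the mouse of tumor 9, and that of Ccne1 0.13 without the mouse of tumors 3 and 4. Rb1 passed neither without the mouse of tumors 10, 11 and 12 (adjusted p = 0.14), nor without that of tumors 3 and 4 (0.12), nor without that of tumor 2 (0.056), although its F of 7.54 was 8.14 in the last case. Cdkn2b was lost without the mouse of tumor 1, 2 or 9 or that of tumors 3 and 4 (adjusted p from 0.051 to 0.11). Without the mouse of tumors 10, 11 and 12, which leaves 1 residual degree of freedom, Cdk4 (F from 3.82 to 29.6, limma, adjusted p = 0.036) and Cdk6 (F from 2.48 to 27.4, adjusted p = 0.038) passed. Rbl1 passed without the mouse of tumor 5, 6 or 8 (limma, adjusted p from 0.042 to 0.045). Without the mice of tumors 2 and 9 together, only Ccne1 of the 10 members passed (limma, adjusted p = 0.047), as did 5.83% of expressed genes. In that fit 4 of 10 members had an unadjusted p under 0.05, beside 35.8% of expressed genes. The F of Rb1 was then 8.73 (limma, adjusted p = 0.081). With no filter on low values Ccnd1 and Ccne1 still passed limma's F test, whereas Cdkn2a (adjusted p = 0.054), Rb1 (0.071) and Cdkn2b (0.12) did not. Without the prior trend Cdkn2b did not pass (limma, adjusted p = 0.05004), and with a pseudocount of 0.1 Rbl1 did (limma, adjusted p = 0.0497).

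The remaining genes of the pathway were described by role list. The lists held other cyclins, kinases, inhibitors, E2F and DP factors, DREAM subunits with Mybl2, turnover factors, and Ink4-Arf regulators with Mdm2. Of their 42 expressed genes, 21 passed limma's F test between mice, beside 43.1% of expressed genes. Without the mice of tumors 2 and 9 none of the 42 passed, beside 5.83% of expressed genes, and 20 had an unadjusted p under 0.05, beside 35.8%. Among other cyclins Ccnd3 was highest with 111 ± 36.8 TPM (SD, n = 9 mice), and Ccna1, a germ line cyclin, was listed at 0 in all tumors. Among other kinases and activators, where 6 of 6 genes passed, Cdk1, the mitotic kinase, was highest with 79.9 ± 34.4 TPM and Cdk7, which activates other CDKs, lowest with 13.9 ± 4.63 TPM.

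Among other inhibitors, of which 1 of 4 passed, Cdkn1a (p21Cip1, a p53 target) was highest with 41.3 ± 29.0 TPM, and Cdkn1c (p57Kip2) lowest with 4.13 ± 5.82 TPM. Cdkn1a ran from 6.45 TPM in tumor 2 to 90.9 TPM in tumor 3. Among the 10 E2F and DP factors 4 passed, with Tfdp1, the common DP partner, highest at 189 ± 49.0 TPM and the repressor E2f7 lowest at 7.57 ± 3.74 TPM. DREAM subunits repress cell cycle genes together with p107 and p130. In their list, which also holds Mybl2, 3 of 6 passed, Mybl2 among them. Rbbp4 was highest at 120 ± 21.8 TPM and Lin52 lowest at 6.71 ± 3.93 TPM.

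Among the genes that degrade p27 and cyclin E 1 of 5 passed, with Skp1a highest at 239 ± 51.0 TPM and Skp2, which recognizes p27, lowest at 17.0 ± 9.16 TPM. In the list of Ink4-Arf locus regulators, which also holds Mdm2, the target of p19Arf, 3 of 7 passed. The Polycomb methyltransferase Ezh2 was highest at 65.7 ± 41.5 TPM and Cbx8 lowest at 7.37 ± 1.78 TPM. Among the 18 E2F targets 15 passed, beside 43.1% of expressed genes, with Pcna, the sliding clamp of DNA replication, highest at 311 ± 136 TPM. Without the mice of tumors 2 and 9 none of the 18 passed limma's F test, beside 5.83% of expressed genes. An unadjusted p under 0.05 was found for 8 of the 18, beside 35.8% of expressed genes.

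The question whether the members go with S phase genes was asked by the slope of each gene on the median log2(TPM + 1) of the 18 E2F targets over 9 mice. That median was lowest in tumor 9, at 4.81, and highest in tumor 2, at 7.01, with the other mice between 5.83 and 6.82. None of the 10 members passed limma's test of the slope after adjustment over 16784 genes, of which 80 (0.477%) passed. At an unadjusted p under 0.05 the count was 5 of 10 members, against 18.4% of all genes. The slope was positive for 8 of 10 members, beside 54.7% of all genes tested, with a median of 0.51 against 0.055 for all genes tested.

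Cdk6 came closest, with a slope of 1.23 ± 0.30 (SE) in log2 units of Cdk6 per log2 unit of the E2F target median (limma, adjusted p = 0.079). It was followed by Cdk4 at 0.67 ± 0.22 (adjusted p = 0.14), Ccne1 at 1.02 ± 0.35 (adjusted p = 0.16), Cdkn2a at 1.89 ± 0.67 (adjusted p = 0.17) and, with a negative sign, Ccnd1 at -0.98 ± 0.42 (adjusted p = 0.25). The slope of Rb1 was 0.11 ± 0.25 (adjusted p = 0.87), that of Rbl1 0.45 ± 0.24 (0.35), that of Rbl2 0.45 ± 0.23 (0.33), that of Cdkn2b 0.57 ± 0.61 (0.68) and that of Cdkn1b -0.34 ± 0.24 (adjusted p = 0.50). Cdk6 passed without the mouse of tumors 3 and 4 (slope 1.53, adjusted p = 0.034).

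Several slopes turned without the mice at both ends. Without those of tumors 2 and 9, the slope of Cdk6 was -0.27, that of Cdk4 -0.087 and that of Ccnd1 0.084. That of Cdkn2a was -1.79 (limma, unadjusted p = 0.018, adjusted p = 0.58). Ccne1 alone of these 5 kept its sign, at 2.04 (limma, unadjusted p = 0.0086, adjusted p = 0.57). Rbl1 (0.42) and Rb1 (0.24) also kept theirs. Among the mice left, that of tumors 3 and 4 had the highest E2F target median (6.82, next 6.26). It also had the highest Ccne1 (6.23, next 5.38). When single mice were left out, the Ccne1 slope was 0.73 without that of tumors 3 and 4 and 0.76 without that of tumor 9. The slope of Cdkn2a turned without the mouse of tumor 9 alone (-0.43) and was 2.07 without that of tumor 2 alone, whereas Ccnd1 was at -1.52 and -0.35. Over the 7 mice left no gene passed, and 7.20% of genes had an unadjusted p under 0.05. Of the 42 other pathway genes tested, 32 had a positive slope over 9 mice, as did 54.7% of all genes tested. None of the 42 passed limma's test over 9 mice, and 17 had an unadjusted p under 0.05, as did 18.4% of all genes tested. Tumor 2 also had the most B cell marker RNA and tumor 9 the most T cell marker RNA, and the part of these in the slopes was not tested.

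**Figure D5:**
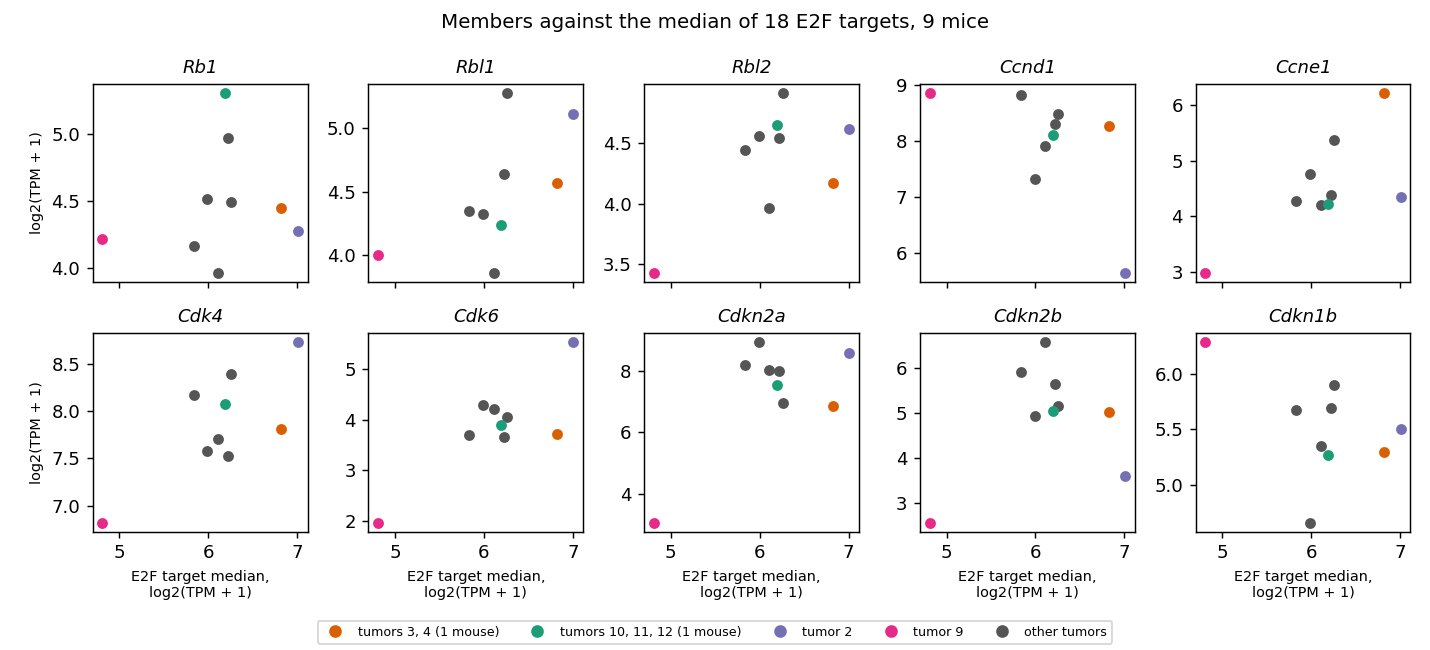
Log2(TPM + 1) of each member against the median log2(TPM + 1) of 18 E2F targets, with 1 point per mouse (n = 9) and colors as keyed. The mice of tumor 9 (4.81) and tumor 2 (7.01) lie at the ends of the axis, and Cdk6 is lowest in the one and highest in the other.

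The genes most like each member over 9 mice were named by Pearson's r of log2(TPM + 1), given as a description, since the points share the extreme tumors. For Cdk6 these were Gins2 (r = 0.97), Cks2 (0.96) and Chek1 (0.96), and for Rbl2 Pard6a (0.96), Rgs4 (0.96) and Ccnb1 (0.95). For Ccne1 they were Strn3 (0.98), Cdk8 (0.97) and Lsm12 (0.96), and for Rbl1 Gm9958 (0.96), Cep135 (0.95) and Nedd1 (0.95). For Cdkn2a they were Ndc1 (0.99), Taf9 (0.97) and Msh3 (0.96), and for Cdkn2b Ctps (0.99), Nup188 (0.97) and Ak4 (0.97).

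Ccnd1 was most like Tmem102, Sh3tc2 and Tcf7l2 (each 0.97), but these values fell to 0.91, 0.87 and 0.86 over the 8 mice without tumor 2. Cdk4 was most like Zbtb2 (0.97), BC106179 (0.96) and Gm43162 (0.96), and Cdkn1b like Acadm (0.95), C920006O11Rik (0.95) and RP23-457F4.3 (0.94). Rb1 had the loosest neighbors, RP23-338G5.3 (0.92), Fam150b (0.88) and Plac9b (0.85), with means of 2.84, 2.97 and 2.13 TPM.

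Several of these values were lower over the 7 mice without tumors 2 and 9. For Cdk6 the r of Gins2, Cks2 and Chek1 was then 0.89, 0.69 and 0.54, and for Cdkn2a that of Ndc1, Taf9 and Msh3 was 0.92, 0.71 and 0.93. Without the mouse of tumor 9 alone, Taf9 had 0.76, while Cks2 and Chek1 had 0.96 and 0.91. For Rbl2 the values over 7 mice were 0.95, 0.89 and 0.97 in the order above, for Cdkn2b 0.94, 0.89 and 0.94, for Ccnd1 0.90, 0.86 and 0.82, and for Cdk4 0.89, 0.90 and 0.85. The other 4 members kept values of 0.86 to 0.99.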

How the data were processed

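Poly(A) RNA from whole tumor tissue had been sequenced as stranded, paired-end libraries. The authors deposited TPM values per Ensembl gene and tumor. Reads had been trimmed with fastq-mcf, aligned with HISAT2 to transcripts of the GRCm38 build and quantified with StringTie 2.1.6 (version from the submitters' processing notes). How transcripts were summed per gene, and whether strand was used, is not given in the sources used here. The depth behind the values is unknown. Because TPM is relative, a few very abundant genes lower all others in a tumor.

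From these values log2(TPM + 1) was computed and tumors of one mouse were averaged. Genes with a mean of 1 TPM or more were tested. Differences between mice (moderated F test over 12 tumors) and slopes on the E2F target median were fitted with limma 3.58.1 in R 4.3.3 with a prior trend, with Benjamini-Hochberg adjustment over all genes, after a test on simulated data. Contrasts and relations used exact two-sided permutation tests over 9 mice, whose smallest p by sign-flip is 0.0039. The F test sets mice against the spread between tumors of one mouse (2 mice), and the other p-values measure the spread between 9 mice. Locations came from GENCODE vM21 (47137 of 47593 identifiers placed) and promoters from RefSeq.

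Members, gene lists and tests were chosen with earlier results of these data known. Named genes are the members, the highest and lowest gene of each list, the 3 genes most like each member, and, for members over 2 times the median of the others, the 5 nearest expressed genes on each side. Some genes that this rule names are not reported here. Genes outside this rule are Ccnd2, Ccne2, Cdkn2c, Cdkn2d, Mybl2, Mdm2, the markers and the genes around Cdkn2a described for tumor 9. Python 3.11.15, scipy 1.17.1 and matplotlib 3.10.9 were used. Alternatives were a pseudocount of 0.1, values rescaled without mitochondrial genes, no filter, no prior trend, each tumor as a unit, the mean of the E2F list and leaving out each mouse. Exome data were not analysed here.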

Additional observations from a re-analysis of the deposited data

Results flagged for a closer look

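Dixon's ratio over 9 mice was computed for 18 quantities (the 10 members, the 7 contrasts and the E2F target median), and 3 stood out, where chance alone gives about 1 in 20. Ccnd1 in the mouse of tumor 2 was far below the others, at 5.63 on the log2(TPM + 1) scale. Cdkn2a in the mouse of tumor 9 was far below the others, at 3.06, and the difference Cdkn2a minus Cdkn1b was far below the others in the same mouse, at -3.23. Of all expressed genes 18.7% had a mouse that far from the rest. Tumor 2 had the lowest epithelial and highest B cell markers, and tumor 9 the lowest E2F target median, and their part in these values was not tested.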

How the results depend on the processing

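The contrasts Ccnd1 minus Ccne1 (3.13 to 3.70), Cdk4 minus Cdk6 (3.87 to 4.07) and Cdkn2a minus Cdkn2b (2.09 to 2.64) stayed above 0 and passed when each mouse was left out. Cdkn2a minus Cdkn1b ranged from 1.52 to 2.45 and passed without the mouse of tumor 9, the 1 mouse with a negative value, whose removal fixes the permutation p at its smallest, and not without any other mouse. It also passed with each tumor as a unit (1.87) and without the mice of tumors 2 and 9 (2.37). Rb1 minus Rbl1 ranged from -0.14 to 0.10 and turned to 0.16 with each tumor as a unit and to 0.085 without the mice of tumors 2 and 9, where Rbl1 minus Rbl2 was -0.0033. Leaving out each mouse moved r of Rb1 with Cdkn2a between -0.21 and 0.24, of Cdkn2a with Cdkn2b between -0.14 and 0.86, and of Ccnd1 with Ccne1 between -0.28 and 0.22, and without the mice of tumors 2 and 9 the first was -0.14 and the last 0.070. Leaving out those mice, also for the genes most like each member, was chosen after seeing the data. It also turned the slopes of Ccnd1 (0.084), Cdk4 (-0.087), Cdk6 (-0.27), Cdkn1b (0.056), Cdkn2a (-1.79), Cdkn2b (-0.77) and Rbl2 (-0.21).

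The F test called 7240 genes and 5 members, 2409 to 7955 genes and 2 to 6 members when a mouse was left out, and 979 genes and 1 member without the mice of tumors 2 and 9. With no filter on low values 2 members passed among 30363 genes tested, Cdkn2a, Cdkn2b and Rb1 being lost, without the prior trend Cdkn2b was lost, and with a pseudocount of 0.1 Rbl1 was gained. The slope test called 80 genes, 123 with a pseudocount of 0.1, 166 without mitochondrial genes, 943 with each tumor as a unit, 436 with the mean of the E2F list, 0 with no filter, 0 without the prior trend, 0 without the mice of tumors 2 and 9, and 0 to 277 when a mouse was left out, while 1208 to 4789 genes had an unadjusted p under 0.05. At most 1 member passed, Ccne1 with each tumor as a unit and Cdk6 with the mean of the list, and 0 to 1 when a mouse was left out. The cause of these changes was not tested. No paired analysis was possible because the series holds a single condition. When one mouse was left out, slopes of single members turned only without the mouse of tumor 9, with ranges of -0.43 to 2.42 for Cdkn2a, -1.54 to 1.36 for Cdkn2b, -0.048 to 0.24 for Rb1, -0.011 to 0.59 for Rbl2 and -0.46 to 0.090 for Cdkn1b.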
